A study of Mus musculus with 15 samples.

Results

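The 10 genes described here define midbrain dopamine neurons or let them make, store, recover and sense dopamine: Th, Ddc, Gch1, Aldh1a1, Slc6a3, Slc18a2, Drd2, Nr4a2, Pitx3 and En1. They were taken by symbol from a total of 36265 genes with values, and each had 1 row in the miR-181 table and 1 in the GFP table. Substantia nigra RNA was sequenced after polyA selection from 8 C57Bl/6J mice, 3 weeks after a virus was injected into the nigra of 1 side. The first set, 3 mice, received AAV-hSYN1-miR-181, an adeno-associated virus, at 1.65e10 vector genomes, which left 3 injected and 3 uninjected libraries. In the GFP set the virus AAV-hSYN1-GFP was given at 1e10 vector genomes, and 4 injected and 5 uninjected libraries were used, since mouse 5 had an uninjected library only. The human synapsin promoter (hSYN1) of both vectors acts in neurons of any transmitter type, so expression from it is not limited to dopamine neurons. Neither a sham injection nor a vector with another promoter is among the samples used here. Vector, dose, sequencer (HiSeq for miR-181, NovaSeq for GFP) and library set changed together, and the authors normalized the tables separately. Changes were therefore tested within a table, and levels of the miR-181 and GFP sets are only placed side by side.

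Dopamine is made from tyrosine by tyrosine hydroxylase and aromatic amino acid decarboxylase, loaded into vesicles, released, and taken up again by a plasma membrane transporter. A small set of transcription factors installs this equipment in midbrain neurons during development and keeps it on in the adult. MicroRNAs of the miR-181 family act by pairing bases 2 to 8, the seed, with messenger RNAs, which lowers the stability or translation of those messages.

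The labels do not say which miR-181 family member the vector carried, and the mature microRNA was not measured. The 4 mouse members are shown because they share 1 seed, in capitals, so that the same target letters apply to each (RefSeq, GRCm38.p6, 5′ to 3′).
miR-181a-5p: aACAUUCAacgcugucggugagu
miR-181b-5p: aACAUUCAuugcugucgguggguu
miR-181c-5p: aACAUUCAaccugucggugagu
miR-181d-5p: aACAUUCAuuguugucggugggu
Matches to this seed, TGAATGT or GAATGTA, were counted in the longest annotated 3′ untranslated region of each gene. Of the 10 genes 3 held a match, against 21.0% of 20957 genes with an annotated 3′ end. Slc18a2, with 2096 bases of 3′ sequence, held 2, Slc6a3, with 1439 bases, held 1, and En1, with 803 bases, held 1. The other 7 genes, Th, Ddc, Gch1, Aldh1a1, Drd2, Nr4a2 and Pitx3, held 0 matches. The 4 matches are shown with their flanks, the match in capitals, on GRCm38 and on the plus strand.
Slc18a2, chr19:59294377-59294406: tataccaacacTGAATGTgttgttatttaa
Slc18a2, chr19:59294610-59294639: ggggtaaaaagTGAATGTtctgaaagcaga
Slc6a3, chr13:73578460-73578489: cacgaagatctTGAATGTgctaccagggtg
En1, chr1:120607678-120607707: ctcttttccttTGAATGTttttgcttctct
A match of letters is a description and not a shown site of action. The gene with the most negative change in the miR-181 comparison, Pitx3, held no match, while Slc18a2, with the second most negative change, held 2. Gch1 (log2 change -0.41) held 0, and Slc6a3 (-0.40) and En1 (-0.18) held 1 each. A relation between the matches and the changes was not tested.

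Values are normalized abundances, read as TPM, a measure scaled to transcript length and library, divided by a size factor of the library. The depth of a library cannot be read from them, and genes at or above 1 numbered 15022 to 15563 per library. In all 4 groups of libraries the order of the mean levels was Aldh1a1, Slc6a3, Th, Ddc, Slc18a2, Drd2, Nr4a2, En1, Gch1 and Pitx3. Mean Aldh1a1 was 548 ± 70.7 on miR-181-injected sides, 561 ± 41.0 on uninjected sides of the same mice, 634 ± 23.7 on GFP-injected sides and 623 ± 84.6 on uninjected sides of GFP mice (SD, n = 3, 3, 4 and 5). Pitx3 closed the order, with 3.96 ± 1.70, 7.32 ± 1.42, 8.88 ± 1.32 and 7.21 ± 1.37 in the same groups. Slc6a3 and Th, next to each other in the order, overlapped in all 4 groups. Slc18a2 and Drd2 overlapped only on miR-181-injected sides, and the other 3 groups kept them apart. The dissected tissue thus held abundant dopamine neuron transcripts in all 15 libraries. In bulk tissue, fewer dopamine neurons, less RNA per neuron and a smaller share of nigra in the dissected piece cannot be told apart.

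On GRCm38, Th (ENSMUSG00000000214) lies on chromosome 7 from 142892752 to 142931128, Ddc (ENSMUSG00000020182) on chromosome 11 from 11814101 to 11898144 and Gch1 (ENSMUSG00000037580) on chromosome 14 from 47153895 to 47189413, all 3 on the minus strand. The transporter gene Slc6a3 (ENSMUSG00000021609) lies on chromosome 13 from 73536747 to 73578672 and Slc18a2 (ENSMUSG00000025094) on chromosome 19 from 59260896 to 59296012, both on the plus strand. The plus strand also holds Aldh1a1 (ENSMUSG00000053279) on chromosome 19 from 20492715 to 20643465, Drd2 (ENSMUSG00000032259) on chromosome 9 from 49340627 to 49408177 and En1 (ENSMUSG00000058665) on chromosome 1 from 120602418 to 120607992. On the minus strand, Pitx3 (ENSMUSG00000025229) lies on chromosome 19 from 46135685 to 46148326 and Nr4a2 (ENSMUSG00000026826) on chromosome 2 from 57106830 to 57124003. All 10 are annotated as protein-coding.

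Both libraries of GFP mouse 1 carried transcripts of Prl and Gh, hormones of the anterior pituitary, which also expresses Drd2 and Pomc. Prl and Gh together made up 0.227% of the values on its injected side and 4.70% on its uninjected side, and at most 0.00130% in any other library. Drd2 in those libraries was 75.9 on the injected side and 79.3 on the uninjected side. GFP mouse 2 had 85.4 and 79.4 on these sides, mouse 3 had 70.7 and 47.2, and mouse 4 had 63.6 and 56.9. Mouse 1 was thus below mouse 2 but above mice 3 and 4. The part of pituitary tissue in its Drd2 values was not tested.

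None of the 10 genes passed the threshold (limma adjusted p under 0.05) on miR-181-injected against uninjected sides: 0 of 10 were called, where 5.88% of the 15453 genes tested were called. By sign, 9 of 10 were lower on the injected side, where 49.2% of all genes tested had a negative log2 change. Their median log2 change was -0.33, beside 0.00 for all genes tested. At an unadjusted limma p under 0.05 stood 1 of 10, Pitx3, against 23.5% of all genes tested. The negative median came from 1 animal, mouse 2, and without both of its libraries the median was 0.03 and 3 of 10 changes were negative. In this animal all 10 genes were lower on the injected side, as were 48.9% of all genes tested, and the median of the 10 log2 changes was -0.85, against 0.01 in mouse 1 and 0.02 in mouse 3.

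**Figure D1:**
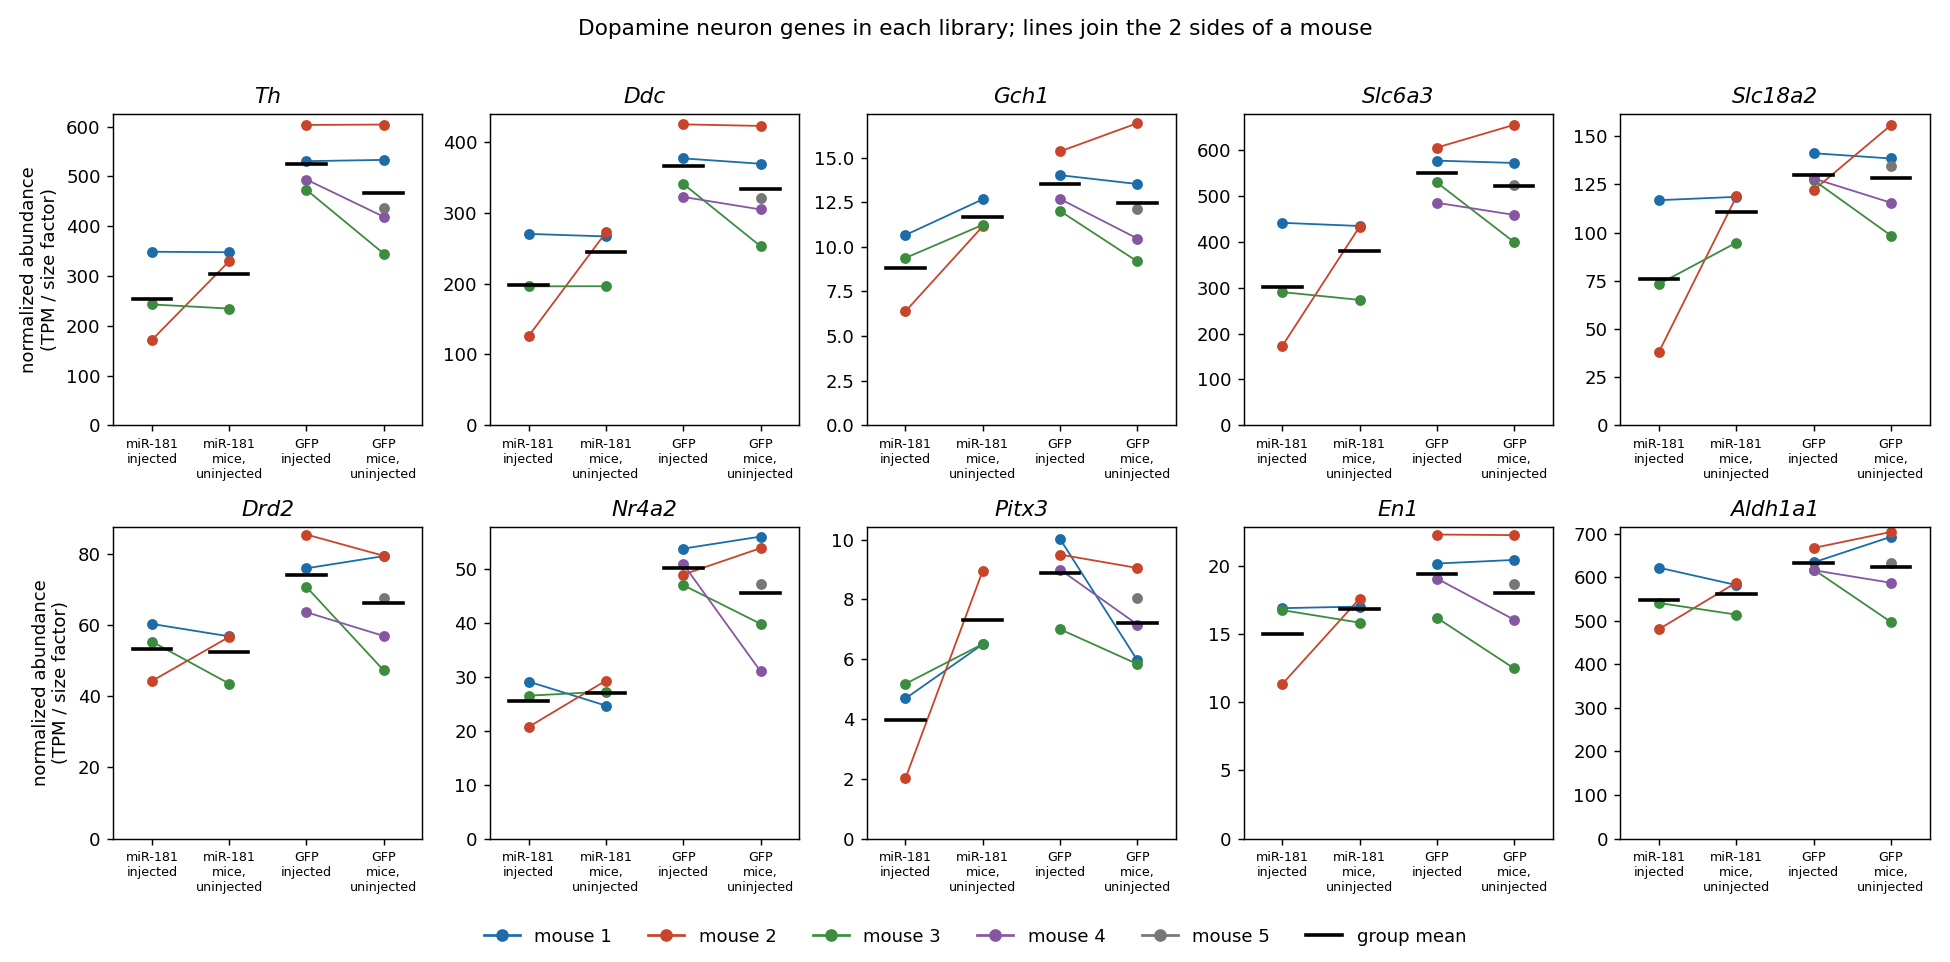
Normalized abundance (vertical axis, TPM divided by a size factor, from 0) of each of the 10 genes in each of the 15 libraries, grouped as miR-181-injected, uninjected sides of miR-181 mice, GFP-injected and uninjected sides of GFP mice; dots are libraries, thin lines join the sides of a mouse and thick bars are group means. The line of miR-181 mouse 2 slopes up to its uninjected side in every panel, steeply for Slc18a2 (38.2 injected, 119 uninjected) and Pitx3 (2.02 injected, 8.96 uninjected).

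Among the synthesis enzymes, Th, the rate-limiting step, measured 349, 171 and 243 in the injected nigra of miR-181 mice 1, 2 and 3, and 348, 329.7 and 235 in their uninjected nigra. Mouse 2 carried the whole difference, and the groups overlapped. Ddc, which turns L-DOPA into dopamine, measured 270.1, 126 and 196 on injected sides and 267, 272 and 196 on the uninjected sides. Mice 1 and 3 were level between sides, and mouse 2 held 46.3% of its uninjected value (all 3 mice: log2 -0.36 ± 0.27, SE; limma adjusted p = 0.469). Gch1 makes the first product on the way to tetrahydrobiopterin, the cofactor that Th needs. It measured 10.7, 6.39 and 9.38 on injected sides and 12.7, 11.2 and 11.2 on the uninjected sides. Every injected value of Gch1 lay below every uninjected one, with a log2 change of -0.41 ± 0.18 (SE; 95% confidence interval -0.84 to 0.01; limma adjusted p = 0.22). Aldh1a1 oxidizes the aldehyde formed from dopamine and marks a ventral group of nigral neurons. It measured 622, 481 and 541 on injected sides and 582, 588 and 514 on the uninjected sides. In mouse 2 it was the least reduced of the 10 genes, at 81.8% of the uninjected side, and its log2 change over 3 mice was -0.04 ± 0.10 (limma adjusted p = 0.85).

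The transporters showed wider gaps in mouse 2 than Th did. Slc6a3, which returns released dopamine to the neuron, measured 441, 173 and 290.2 in the injected nigra of miR-181 mice 1, 2 and 3 and 434, 433 and 273 in their uninjected nigra. Mouse 2 was lower by 1.32 log2 units on its injected side, and mice 1 and 3 were slightly higher on the injected side. Slc18a2, which loads dopamine into vesicles, measured 117, 38.2 and 73.4 on injected sides and 119, 119 and 94.8 on the uninjected sides. It was lower on the injected side of each mouse, by 0.02, 1.62 and 0.37 log2 units in mice 1, 2 and 3, though the groups overlapped. Over 3 mice the log2 change of Slc18a2 was -0.67 ± 0.36 (SE; 95% confidence interval -1.53 to 0.19; limma adjusted p = 0.321). Slc18a2 also serves serotonin and noradrenaline neurons. Drd2, the autoreceptor through which these neurons sense dopamine, measured 60.3, 44.3 and 55.3 on injected sides and 56.8, 56.6 and 43.5 on the uninjected sides. It was the 1 gene of the 10 with a positive change, 0.03 ± 0.14 (limma adjusted p = 0.942), and its sign turned when each library was centred on its median (-0.04).

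Of the transcription factors, Pitx3, a homeodomain factor on which nigral dopamine neurons depend for survival in mice, measured 4.69, 2.02 and 5.18 in the injected nigra of miR-181 mice 1, 2 and 3. In their uninjected nigra it measured 6.50, 8.96 and 6.51. All 3 injected values lay below all 3 uninjected ones, and Pitx3 was lower by 0.43, 1.91 and 0.30 log2 units in mice 1, 2 and 3. The log2 change was -0.88 ± 0.32 (SE; 95% confidence interval -1.63 to -0.13; limma adjusted p = 0.158), and without mouse 2 it was -0.37 (limma adjusted p = 0.383). Gch1 and Pitx3 were thus 2 of 10 genes with separate groups, where 14.5% of all genes tested had every injected value below every uninjected one. Nr4a2 (Nurr1), a nuclear receptor that switches on Th and Slc6a3 in development, measured 29.2, 20.7 and 26.5 on injected sides and 24.7, 29.3 and 27.3 on the uninjected sides. The groups overlapped, with mouse 1 higher on its injected side (log2 -0.10 ± 0.13 over 3 mice; limma adjusted p = 0.707). En1, a homeodomain factor of midbrain neurons, measured 16.9, 11.3 and 16.8 on injected sides and 17.0, 17.6 and 15.8 on the uninjected sides. Mouse 2 alone was clearly lower (log2 -0.18 ± 0.15 over 3 mice; limma adjusted p = 0.531).

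The precision of these values differed among the genes. In the authors' deposited table of the miR-181 set, technical variance, estimated from the quantification itself, made up 87.4% of the observed variance of Nr4a2 and 20.0% of that of Pitx3. For the other 8 genes the share in that table was 4.78% or less. In the authors' deposited table of the GFP set the technical variance of Pitx3 was 162% of its observed variance, and that of Nr4a2 40.3%. By the same deposited tables, with their means read as natural logs, Pitx3 had a mean of 24.2 estimated counts in the miR-181 set and 17.4 in the GFP set, and the other 9 genes at least 322 in either set. The first of the 2 q-values in the authors' deposited table was smallest for Pitx3 among the 10 genes in the miR-181 set, at 0.172, where 10.7% of genes had a first q under 0.05. In that of the GFP set the smallest first q-value was 0.951, of Th, where 1.97% of genes were under 0.05. The smallest second q-values in the authors' deposited tables were 0.201, of Pitx3, in the miR-181 set and 0.880 in the GFP set, where 8 genes shared it.

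**Figure D2:**
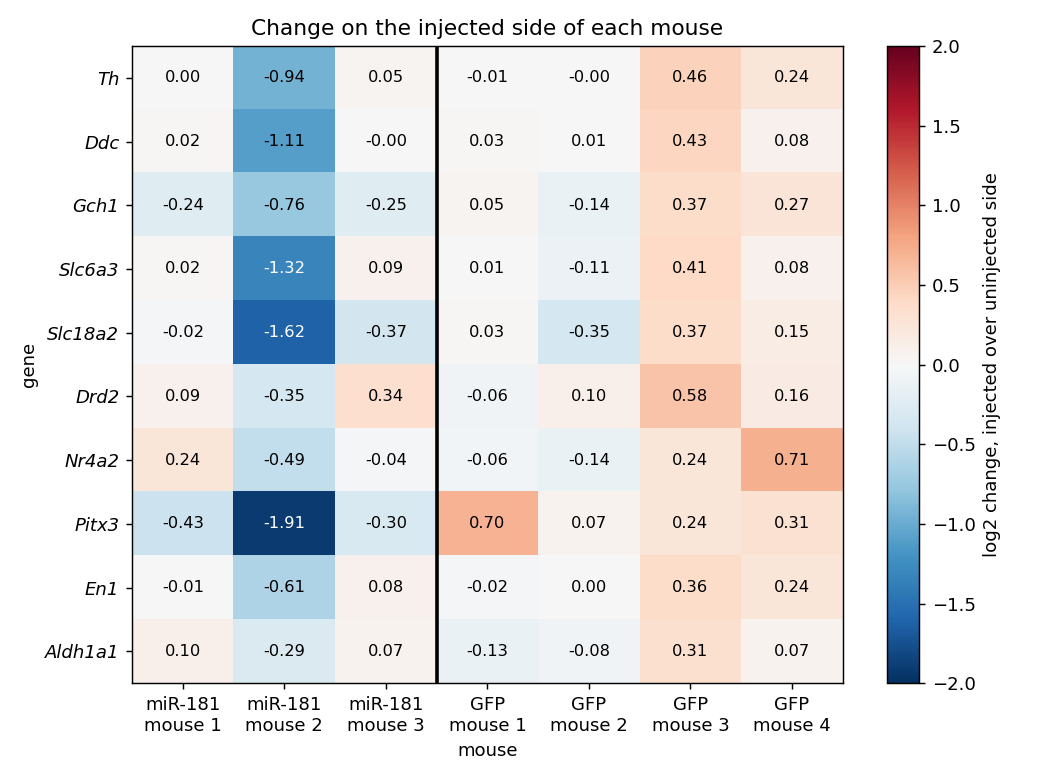
Log2 change of the injected over the uninjected side (colour and printed value, log2 of value + 0.5) for each of the 10 genes (down the page) in each mouse with both sides (across, miR-181 mice left of the black line, GFP mice right of it). The column of miR-181 mouse 2 is negative throughout, from -0.29 for Aldh1a1 to -1.91 for Pitx3, and the column of GFP mouse 3 is positive throughout, from 0.24 to 0.58.

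In miR-181 mouse 2 the 10 genes were lower on the injected side by unequal amounts. The injected side held 22.5% of the uninjected value for Pitx3, 32.2% for Slc18a2 and 46.3% for Ddc. It held 52.0% for Th, 57.3% for Gch1 and 64.4% for En1. Nr4a2, Drd2 and Aldh1a1 kept the most, with 70.7%, 78.1% and 81.8%. A log2 change under -0.5 was seen in 7 of the 10 genes in this mouse, where 6.62% of all genes tested passed that mark, and in 0 of the 10 genes in mouse 1 and in mouse 3, where 2.87% and 4.35% of all genes did. Among 15453 genes ordered from the most negative change in mouse 2, Pitx3 ranked 43, Slc18a2 61, Slc6a3 95, Ddc 156 and Th 239, while Aldh1a1 ranked 2357. Ratios within a library are quotients of the same values, so they restate this inequality and add no separate evidence. The ratio of Slc6a3 to Aldh1a1 was 0.359 on the injected side of mouse 2 and 0.736 on its uninjected side. The ratio of Drd2 to Slc18a2 was 0.516, 1.16 and 0.754 on the injected sides of miR-181 mice 1, 2 and 3, against 0.479, 0.477 and 0.459 on their uninjected sides, so that it was higher on the injected side of each mouse. In GFP mice this ratio was 0.538, 0.700, 0.556 and 0.496 on the injected sides of mice 1 to 4. On the uninjected sides of GFP mice 1 to 5 it was 0.573, 0.510, 0.480, 0.493 and 0.503. It was thus also higher on the injected side of GFP mice 2, 3 and 4, though barely in mouse 4, and lower in mouse 1. The uninjected library of mouse 1, which held pituitary transcripts, had the highest ratio of all uninjected sides (0.573).

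The GFP comparison gives the same genes after injection of a virus without miR-181. None of the 10 was called (0 of 10; limma adjusted p from 0.594 to 0.961), where 1.35% of the 15274 genes tested were called, and 0 of 10 had an unadjusted p under 0.05, against 9.52% of all genes tested. All 10 fitted log2 changes were positive, from 0.03 for Slc18a2 to 0.29 for Pitx3, with a median of 0.14, beside 0.00 for all genes tested, of which 48.2% were negative. Th measured 531, 603, 473 and 494 in the injected nigra of mice 1 to 4, and 533, 604, 345, 419 and 437 in the uninjected nigra of mice 1 to 5. Mice 1 and 2 were level between sides, and mice 3 and 4 were higher on the injected side. In mice 3 and 4 all 10 genes were above the uninjected side, where 51.2% and 51.8% of all genes tested were. Mouse 3 had the lowest uninjected values of its group for 9 of the 10 genes, among them Slc6a3 (399), Ddc (253) and Drd2 (47.2). Nr4a2 was lowest on the uninjected side of mouse 4, at 31.1, against 51.0 on its injected side. Pitx3 measured 10.02, 9.50, 7.0 and 8.99 on injected sides and 5.96, 9.05, 5.84, 7.16 and 8.04 on the uninjected sides of GFP mice. It was higher on the injected side of each of the 4 mice, the groups overlapped, and the log2 change was 0.29 ± 0.15 (SE; limma adjusted p = 0.594). Without mouse 1, whose libraries held pituitary transcripts, the median log2 change of the 10 genes was 0.16 and that of Pitx3 was 0.17 (limma adjusted p = 0.79).

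The per-mouse changes of 3 miR-181 mice were next set against those of 4 GFP mice; this uses the same libraries as the comparisons above and is no independent sample. None of the 10 genes was called (0 of 10), where 0.0337% of the 14824 genes tested were called. At an unadjusted limma p under 0.05 were 2 of 10, Pitx3 and Gch1, against 15.3% of all genes tested. All 10 differences were negative, with a median of -0.48, where 50% of all genes tested were negative. Pitx3 differed by -1.21 ± 0.37 log2 units (SE; 95% confidence interval -2.07 to -0.36; limma adjusted p = 0.199), and its changes in the 3 miR-181 mice, -0.43, -1.91 and -0.30, were all below its changes in the 4 GFP mice, 0.70, 0.07, 0.24 and 0.31. How many of all genes tested kept the 2 sets of mice apart in this way was not counted. Gch1 differed by -0.55 ± 0.18 (SE; limma adjusted p = 0.21). Without miR-181 mouse 2 the difference was -0.70 for Pitx3, -0.38 for Gch1 and -0.12 for the median of the 10 genes. The interval of Th, -1.004 to 0.07, and that of Slc18a2, -1.51 to 0.07, held 0 as well as differences beyond -1 on the log2 scale.

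**Figure D3:**
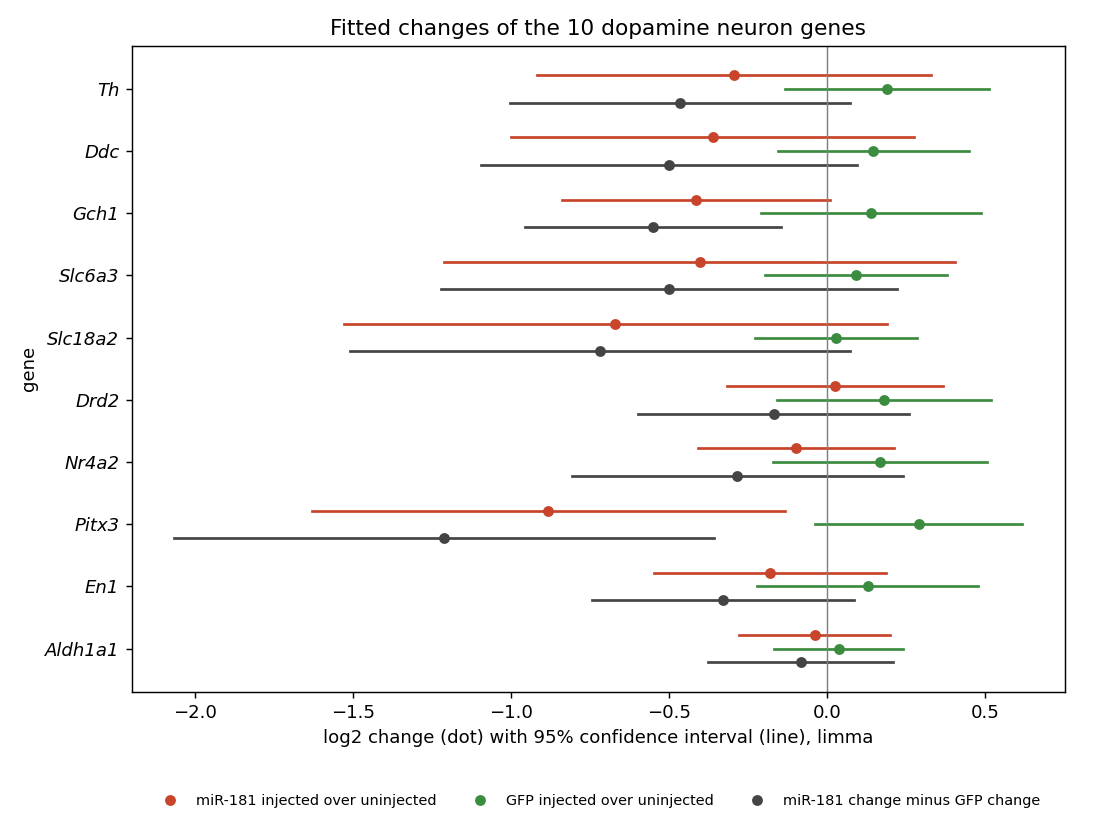
Fitted log2 change (dot) with its 95% confidence interval (line) from limma for each of the 10 genes in 3 comparisons: miR-181-injected over uninjected (red), GFP-injected over uninjected (green) and the miR-181 change minus the GFP change (grey). Only Pitx3 (red, grey) and Gch1 (grey) have intervals clear of 0, and neither passed after adjustment over all genes.

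Levels of the 10 genes correlated across libraries. After centring on the mean of each table, the 45 pairs among them had Pearson correlations from 0.417 to 0.983 over the 15 libraries, with a median of 0.808, and from 0.318 to 0.982 with a median of 0.754 without the injected side of miR-181 mouse 2. Libraries of a mouse share an animal, so these correlations are descriptions only. Ddc was the closest of all 14824 genes to Th (0.983), while Pitx3 (0.693) and Nr4a2 (0.651) were the least like it among the members. Outside the 10 genes, those most like Th were Ret (0.979), the receptor subunit for glial cell line-derived factors, Cadps2 (0.959), Ntsr1 (0.955), Chrna6 (0.951), Gucy2c (0.944), Slc10a4 (0.940), Trpc6 (0.938), Chrna4 (0.934), Chrnb3 (0.915) and Cgref1 (0.903). Most like the mean of the 10 genes were Chrna6 (0.955), Slc10a4 (0.953) and Ret (0.952). Chrna6, a nicotinic receptor subunit of dopamine neurons, differed by -1.67 log2 units between the sides of miR-181 mouse 2. Both libraries of that mouse were among the 15 that gave the correlations, so this value adds no separate evidence.

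The promoters of 3 of the genes are shown because their windows hold letters of sites for factors tied to dopamine genes. Windows ran from 250 bases before to 50 after the start (RefSeq, GRCm38.p6; all 10 genes matched, with 12 windows), and both strands were searched. The cAMP response element TGACGTCA was in the windows of Th, 45 bases before the start, and Slc18a2, 4 bases before it, and in 1.79% of 32851 windows of all genes. The Nr4a-type element AAAGGTCA was in 1 window of Ddc, on the strand opposite to the gene 73 bases before the start, where it overlaps a match to TATAAA, and in 1.51% of all windows. TATAAA alone was also in the windows of Nr4a2 and Gch1, and in 13.6% of all windows. The paired-type homeodomain site TAATCC was in 0 of the 12 windows, and in 7.06% of all windows. Capitals mark the matches, and each sequence is written in the direction of the gene.
Th, chr7:142899946-142900245, minus strand: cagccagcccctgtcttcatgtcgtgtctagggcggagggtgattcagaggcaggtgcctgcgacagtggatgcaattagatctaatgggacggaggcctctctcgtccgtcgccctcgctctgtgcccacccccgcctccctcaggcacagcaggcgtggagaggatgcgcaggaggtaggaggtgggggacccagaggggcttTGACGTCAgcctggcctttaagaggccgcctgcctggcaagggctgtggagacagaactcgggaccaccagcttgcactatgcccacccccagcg
Ddc, chr11:11898095-11898394, minus strand: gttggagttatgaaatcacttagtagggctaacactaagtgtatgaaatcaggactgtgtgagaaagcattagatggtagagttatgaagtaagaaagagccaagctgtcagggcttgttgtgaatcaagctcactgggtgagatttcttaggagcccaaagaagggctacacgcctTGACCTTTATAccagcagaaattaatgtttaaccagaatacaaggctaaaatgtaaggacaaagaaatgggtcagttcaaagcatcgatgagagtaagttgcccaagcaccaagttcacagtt
Slc18a2, chr19:59260628-59260927, plus strand: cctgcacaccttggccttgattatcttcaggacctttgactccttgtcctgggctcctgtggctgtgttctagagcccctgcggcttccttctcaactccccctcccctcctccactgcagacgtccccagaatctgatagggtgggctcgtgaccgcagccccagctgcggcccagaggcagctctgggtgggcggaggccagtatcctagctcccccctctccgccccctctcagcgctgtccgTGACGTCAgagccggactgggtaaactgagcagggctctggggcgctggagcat
Th and Slc18a2, which share the cAMP response element letters, differed by -0.94 and -1.62 log2 units between the sides of miR-181 mouse 2, and Ddc by -1.11. Slc6a3 and Pitx3, whose windows held 0 of these motifs, differed by -1.32 and -1.91 in the same mouse. A relation between the letters and the changes was not tested.

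Genes around the pathway were followed in lists. Of 21 other genes enriched in dopamine neurons, 0 were called and 19 were lower on miR-181-injected sides, with a median log2 change of -0.24. Of all genes tested there, 5.88% were called and 49.2% had a negative change. By mouse the median of this list was -0.04, -0.64 and -0.08, the same animal standing apart. Kcnj6, a potassium channel opened by Drd2 signalling, averaged 13.3 ± 3.60 on injected sides and 20.5 ± 1.23 on uninjected sides (SD, n = 3 each; log2 -0.64 ± 0.18, limma adjusted p = 0.092). Calb2, the calcium buffer calretinin, averaged 192 ± 1.77 and 226 ± 17.8 in the same groups (limma adjusted p = 0.0776). Of 10 other midbrain dopamine transcription factors 0 were called, with a median of -0.16. Lmx1a, an early factor of dopamine neurons, averaged 1.17 ± 0.302 on injected sides and 1.92 ± 0.770 on uninjected sides (limma adjusted p = 0.378). The 8 genes of cofactor synthesis and dopamine breakdown had a median of 0.02, with 0 called. Of these Pcbd1, which recycles tetrahydrobiopterin, averaged 36.5 ± 5.67 on injected sides and 50.8 ± 2.0 on uninjected sides (SD, n = 3 each; log2 -0.48 ± 0.11, limma adjusted p = 0.0566). Of 4 other dopamine receptors Drd1 and Drd5 reached a mean of at least 1 and were tested, with 0 calls. In GFP mice 0 genes of these 4 lists were called, where 1.35% of all genes tested were. The medians of the lists in GFP mice were 0.04, 0.00, 0.07 and -0.04 in the order given.

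**Figure D4:**
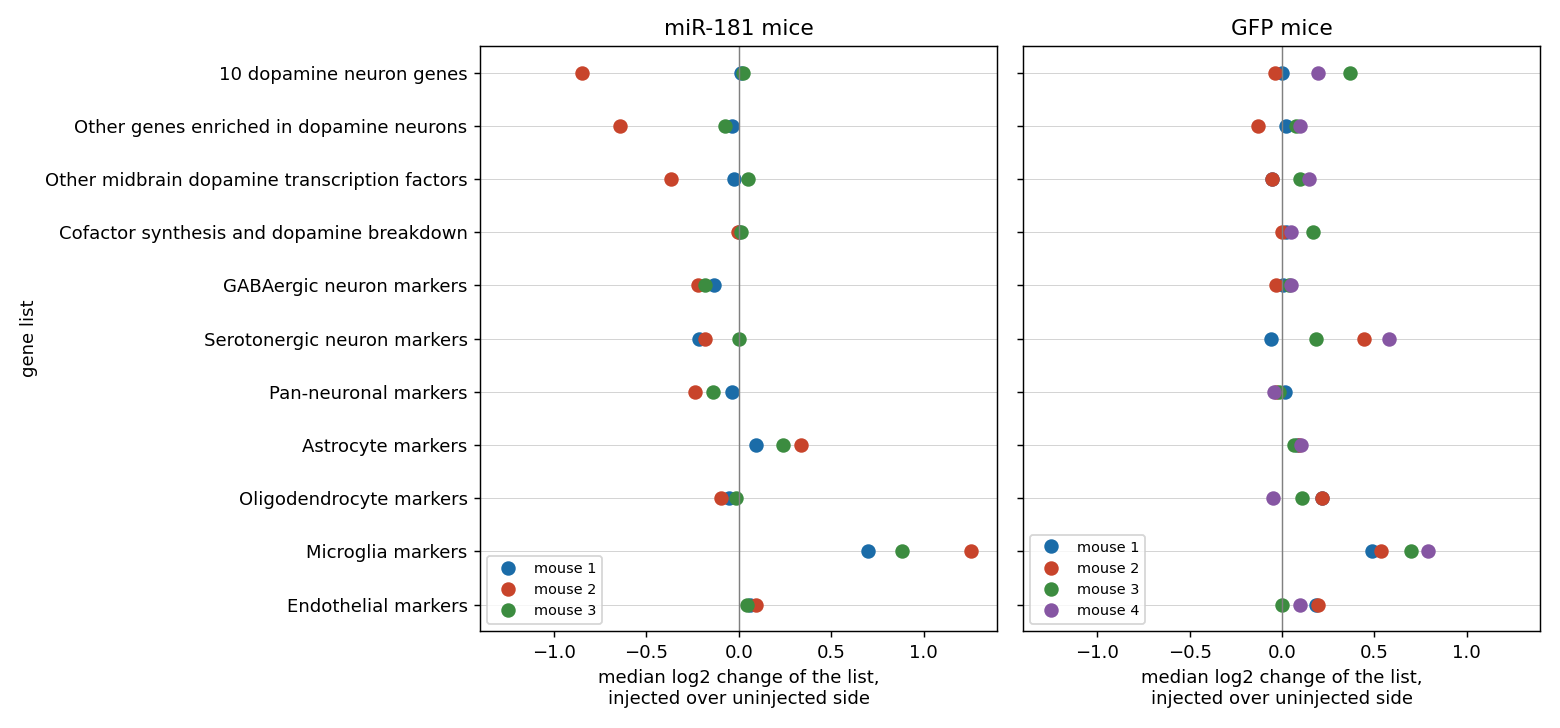
Median log2 change of the injected over the uninjected side (horizontal axis) of each gene list (down the page), 1 dot per mouse, miR-181 mice left and GFP mice right; lists count their genes with a mean of at least 1. In miR-181 mouse 2 the 10 dopamine neuron genes (-0.85), other dopamine neuron genes (-0.64) and other transcription factors (-0.37) stand left of the remaining mice, and the microglia list stands furthest right (1.26).

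Markers of other cell types moved as well, and their part in the values above was not tested. On miR-181-injected sides 4 of 5 microglia genes were called higher, among them Aif1, which averaged 54.1 ± 16.6 on injected sides and 12.9 ± 2.54 on uninjected sides (SD, n = 3 each; log2 2.0 ± 0.23, limma adjusted p = 0.00748). Of all genes tested in this comparison, 4.39% were called higher and 49.2% had a negative change. The summed level of the microglia genes was 289, 411 and 319 on the injected sides of miR-181 mice 1, 2 and 3, highest in mouse 2, and 183, 169 and 166 on the uninjected sides. Astrocyte genes had 2 of 5 called higher, Gfap (log2 0.97 ± 0.16, limma adjusted p = 0.0206) and Aqp4 (0.46 ± 0.09, limma adjusted p = 0.034), and their summed level was 1474 to 1823 on injected and 1066 to 1203 on uninjected sides. Summed pan-neuronal genes came to 5709, 5007 and 5481 on injected sides and 5875, 6022 and 6113 on uninjected sides, with 0 of 10 called, 9 of 10 negative and a median of -0.15. GABAergic genes had 0 of 5 called and a median of -0.13, and Pvalb, the calcium buffer parvalbumin, was nearest to the threshold (log2 -0.53 ± 0.12, limma adjusted p = 0.0502). Both neuronal medians were closer to 0 than the -0.33 of the 10 dopamine neuron genes, a difference that was not tested. That order came from mouse 2 and was reversed in mice 1 and 3. In mice 1 and 3 the median was 0.01 and 0.02 for the dopamine neuron genes. It was -0.14 and -0.19 for GABAergic genes and -0.04 and -0.14 for pan-neuronal genes. Oligodendrocyte and endothelial markers had 0 of 5 called each. The called glial genes were higher on the injected side of each miR-181 mouse, but their calls depended on the libraries used. Microglia medians were 0.699, 1.26 and 0.885 log2 units in mice 1, 2 and 3. In the same order Gfap changed by 0.555, 1.24 and 1.11 and Aqp4 by 0.241, 0.689 and 0.438. Calls over all genes also fell from 908 to 1 without mouse 3, so a lost call does not place the change in 1 animal. Without miR-181 mouse 3, or without the uninjected library of mouse 2 alone, 0 microglia and 0 astrocyte genes were called, and Aif1 then had a log2 change of 1.89 (limma adjusted p = 0.175) or 1.97 (limma adjusted p = 0.0539). Without the uninjected library of mouse 1 or that of mouse 3 there was 1 microglia call, Aif1, and without both libraries of mouse 2 there were 2, with 0 astrocyte calls each time. Without the injected library of mouse 3 there were 3 microglia and 0 astrocyte calls, and without that of mouse 2 there were 4 and 1. Without both libraries of mouse 1, or without its injected library alone, 4 microglia and 2 astrocyte calls remained. All 5 microglia changes were positive in each of these fits. In GFP mice 3 of 5 microglia genes and 1 of 5 astrocyte genes were called higher, and 0 neuronal genes. Of all genes tested in GFP mice, 1.34% were called higher. The 3 microglia calls in GFP mice held when any single library was left out. They numbered 2 without mouse 3 or mouse 4, and 1, Aif1, without mouse 2. The astrocyte call in GFP mice was lost without any 1 of the 5 mice.

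Serotonin neurons also use Ddc, Gch1 and Slc18a2, and noradrenaline neurons use Th as well. Summed serotonergic markers came to 58.3, 69.3 and 115 on the injected sides of miR-181 mice 1, 2 and 3 and to 68.5, 73.5 and 120.0 on their uninjected sides, with 0 called of 4 genes tested; Htr5b, the fifth of the list, had a mean below 1. They summed to between 20.6 and 26.8 on the injected sides of GFP mice and between 14.4 and 28.4 on the uninjected sides. The defining marker Tph2 averaged 32.3 ± 14.8 on miR-181-injected and 37.7 ± 15.05 on uninjected sides, but 0.791 ± 0.182 on GFP-injected and 0.570 ± 0.157 on uninjected sides (SD, n = 3, 3, 4 and 5). Gata3, which GABAergic neurons also express, averaged 21.7 ± 2.79 on GFP-injected and 18.1 ± 5.28 on uninjected sides of GFP mice and so made up most of the sum there (SD, n = 4 and 5). The members of the list differed in direction in miR-181 mouse 2, where Tph2, Slc6a4 and Fev had log2 changes of -0.27, -0.17 and -0.20 and Gata3 one of 0.25. The part of serotonin neurons in the values of Ddc, Gch1 and Slc18a2 was not tested. Noradrenergic markers, Dbh and Slc6a2 among them, summed to at most 1.18 in any library.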

How the data were processed

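The authors' deposited tables, 1 for each virus, give a normalized abundance per gene and library and their own statistics. The submitters' processing notes name kallisto 0.43.1, sleuth 0.30.0 and GRCm38. The deposited signal per gene was taken to be TPM over a size factor, since library sums ran from 970505 to 1040288; the planned test assumed TPM and was kept. Library depth is unknown, and no counting interval is given. The deposited score of the likelihood ratio test was not printed. The authors' coefficients were read as a natural log and the first deposited p-value and q-value as those of a Wald test. Rows that repeated a symbol with equal values (395) were left out.

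Log2(value + 0.5) was tested in R 4.3.3 with limma 3.58.1 and an intensity trend, for all genes with a mean of at least 1, at a Benjamini-Hochberg adjusted p of 0.05. This scale understates changes of low genes such as Pitx3. Every member is named, with up to 3 genes of each list by smallest p, called genes and fixed markers; those described were selected after their values were seen. Members and lists were chosen with earlier results of these data known. Replicates are separate mice. The labels give both sides of each animal 1 mouse number, which pairs its libraries. Their deviations from group means correlated at 0.140 to 0.257 (miR-181) and 0.0177 to 0.192 (GFP). The model was also run on simulated data with known changes, whose outcome is not given here. The simulated noise was independent between libraries, without pairing by mouse, so that run cannot show how results depend on single animals. Gene positions and 3′ ends came from the GENCODE annotation of GRCm38; sequences and motifs were read with Python 3.11.15, numpy 2.4.6 and pandas 2.3.3, and figures drawn with matplotlib 3.10.9. Alternatives were other pseudocounts, filters and scalings, no trend, mouse as a block and leaving out libraries or mice.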

Additional observations from a re-analysis of the deposited data

Results flagged for a closer look

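Pitx3 was lower on the injected side in each of 3 miR-181 mice (log2 changes of -0.43, -1.91 and -0.30) and higher in each of 4 GFP mice (0.70, 0.07, 0.24 and 0.31), so that every mouse of one set moved opposite to every mouse of the other. The share of all genes with such opposite moves was not counted, so how unusual the pattern is remains unknown. The difference for Pitx3 was -1.21 log2 units and was tested with limma over 14824 genes (adjusted p = 0.199). Over its alternatives the adjusted p was 0.139 or more. In the GFP set, the technical variance of Pitx3 in the authors' deposited table was 162% of the observed variance. Among 30 groups of 4 or 5 libraries of the 10 genes and their per-mouse changes, all of them from the GFP set, 0 held a single value far from the others by Dixon's criterion. The miR-181 groups have 3 libraries and could not be tested this way.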

How the results depend on the processing

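No setting called any of the 10 genes in any of the 3 comparisons, so mouse as a block, with the paired libraries, changed no call (0 of 10 called in miR-181 and in GFP mice; the block leaves out the library of GFP mouse 5). With the block the limma adjusted p of Gch1 in miR-181 mice was 0.143 and that of Pitx3 0.194. The median log2 change of the 10 genes ran from -0.56 to 0.03 in miR-181 mice, from 0.05 to 0.23 in GFP mice and from -0.64 to -0.12 for the difference when libraries or mice were left out. The high end in miR-181 mice came without mouse 2, where Th, Ddc, Slc6a3, Nr4a2, En1 and Aldh1a1 turned positive; their ranges were -0.55 to 0.027, -0.62 to 0.0091, -0.73 to 0.055, -0.27 to 0.098, -0.31 to 0.035 and -0.14 to 0.084. Drd2 in miR-181 mice was -0.040 with libraries centred on their median and ran from -0.13 to 0.21 when libraries were left out. In GFP mice Aldh1a1 was -0.052 under quantile normalization, and leaving out libraries gave -0.042 to 0.083 for it, -0.0010 to 0.18 for Slc6a3 and -0.063 to 0.13 for Slc18a2. The difference ran from -0.33 to 0.020 for Drd2 and from -0.15 to 0.040 for Aldh1a1. Beyond the left-out animals, the cause was not tested. Gch1, Slc18a2 and Pitx3 kept a negative change in miR-181 mice in all settings, with the lowest adjusted p at 0.0843, 0.0521 and 0.114.

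The count over all genes depends on single libraries: the 908 calls of the miR-181 comparison ran from 1 (without mouse 3) to 1924 (without injected mouse 1), with 107 without mouse 2, 315 without a filter and 449 without the trend. The 206 calls in GFP mice ran from 64 (without mouse 2) to 255, with 136 at a mean of at least 5 and 135 with the block. The 5 calls for the difference ran from 1 to 313 (without miR-181 mouse 1), with 0 at a pseudocount of 2, 1 without a filter, 1 after quantile normalization and 3 without the trend. With 3 mice a side, intervals of the 10 genes stay wide, and library depth is unknown.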

Other observations

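Levels also differed between animals on the uninjected side alone. In miR-181 mice the uninjected side of mouse 3 had the lowest Th (235, against 348 in mouse 1 and 329.7 in mouse 2) and the highest serotonergic sum (120.0, against 68.5 and 73.5). Its injected side had the highest serotonergic sum of the injected sides (115), with Th at 243. These are values of 3 animals, for which no relation was tested.

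Lmx1b, a transcription factor of dopamine and serotonin neurons, averaged 4.28 ± 0.881 on miR-181-injected and 5.41 ± 1.55 on uninjected sides, and 7.77 ± 0.389 on GFP-injected and 7.76 ± 1.54 on uninjected sides (SD, n = 3, 3, 4 and 5). Since the tables were normalized separately, no test was made between them.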
